A study of Mus musculus with 12 samples.

Results

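Ribosomal protein genes of the mouse, both those of the cytosolic and those of the mitochondrial ribosome, were examined for regions of Runx1b DamID signal in cells labelled haemogenic endothelium, the source of the first blood cells. Members were the protein-coding genes whose symbol starts with Rpl, Rps, Mrpl or Mrps followed by a number, without the ribosomal S6 kinases, and 165 of the 21887 protein-coding genes of the RefSeq table met this rule, 87 of them cytosolic and 78 mitochondrial. A gene counted as having a region when its symbol had a row in the deposited table. The cytosolic genes include the pseudogene-like symbols Rpl34-ps1 and Rpl31-ps12, the retrogenes Rpl37rt, Rps27rt and Rps23rg1, and Rps19bp1, which encodes a nucleolar partner of a ribosomal protein and not a subunit.

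In DamID a DNA-binding protein is fused to the bacterial methylase Dam, which marks the GATC sites around the fusion with methyl groups, and the marked DNA is read by sequencing. There were 12 libraries, 6 of them from the cell line iRunx1b::Damko, which carries Runx1b fused to Dam, and 6 from iDamko, which carries Dam alone. Both are mouse embryonic stem cell lines of strain 129 with the genotype runx1-/-, and each genotype is represented by 1 line. FLK1+ cells isolated from embryoid bodies, of the same age in all 12 libraries, were grown for 2 days in blast culture. Each line had 3 biological replicates and 3 technical replicates, with 2 libraries sorted by flow cytometry for the cKIT+ TIE2+ CD41- phenotype and 4 selected magnetically for FLK1. The deposited table holds a single read count for each gene, not divided by library, and which libraries it sums is not stated. No value therefore has a replicate error, the depth of a library is unknown, no test over samples could be made, and reads of the fusion and of Dam alone cannot be told apart. It lists only genes with a region, so a gene without a row is not shown to have had 0 reads.

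Cytosolic ribosomes translate the messages of the nucleus, and their proteins are made in every growing cell from short, highly transcribed genes. Mitochondrial ribosomes translate the few messages of the mitochondrial genome, chiefly subunits of the respiratory chain, although all of their proteins are encoded in the nucleus. Blood formation depends closely on ribosome supply: in humans, loss of 1 copy of any of several cytosolic ribosomal protein genes, RPL11 and RPS26 among them, causes Diamond-Blackfan anaemia, in which red cell precursors fail.

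Of the 165 ribosomal protein genes 32 (19.4%) had a region, against 4588 of all 21887 protein-coding genes (21.0%). For the cytosolic genes the count was 14 of 87 (16.1%, exact Clopper-Pearson interval 9.09% to 25.5%), and for the mitochondrial genes 18 of 78 (23.1%, 14.3% to 34.0%). Both intervals hold the 21.0% of all genes and they overlap each other, so neither class stands apart from the background by its share alone. These intervals cover counting error only, and genes are not independent replicates. By symbol prefix, which does not always give the subunit, Rpl and Rps genes had similar shares, and so did Mrpl and Mrps genes. They were 9 of 53 Rpl genes (17.0%), 5 of 34 Rps genes (14.7%), 11 of 49 Mrpl genes (22.4%) and 7 of 29 Mrps genes (24.1%).

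Ribosomal protein genes are short, and short genes had a region less often. Their median length was 4153 bp (quartiles 2680 and 8281 bp), with 3164 bp for the cytosolic and 7690.5 bp for the mitochondrial genes, against 17169 bp for all protein-coding genes. Over 10 nearly equal classes of protein-coding genes ordered by length, those with a region made up 3.34% of the shortest class, 12.2% of the second, 14.4% of the third, 16.9% of the fourth, 17.8% of the fifth, 19.7% of the sixth and 21.1% of the seventh. In the 3 longest classes it was 25.5%, 33.2% and 45.3%. The 5 shorter classes held 152 of the 165 members, and all 87 cytosolic ones. In these classes 28 of the 152 members had a region (18.4%), against 13.0% of all 10943 protein-coding genes there.

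Weighted by the members' own length classes, the share of protein-coding genes with a region was 12% for genes as long as the cytosolic ones and 16.2% for genes as long as the mitochondrial ones. The observed 16.1% and 23.1% were thus above the share of genes of like length, but both length-weighted shares lay within the members' counting intervals. For all members together the observed share was 19.4% (13.7% to 26.3%) and the length-weighted share 14.0%, near the interval's lower end. With 5 length classes in place of 10 it was 12.7%, below that interval. With predicted genes and olfactory and vomeronasal receptors taken out of the background, 24.4% of the remaining 18536 genes had a region. The length-weighted shares were then 14.6% for cytosolic, 17.9% for mitochondrial and 16.2% for all members, closer to the members. Among the members themselves, cytosolic genes with a region had a median length of 2826.5 bp and those without one 3230 bp, while the mitochondrial medians were 8590.5 bp and 7224.5 bp. In the second length class, the fullest one, 10 of 50 cytosolic and 4 of 18 mitochondrial genes had a region. In the third class it was 1 of 19 and 2 of 15, together 3 of 34 against 14.4% of all genes there, and in the fourth class 1 of 5 and 7 of 20. The members' position against genes of like length thus changed from class to class.

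**Figure D1:**
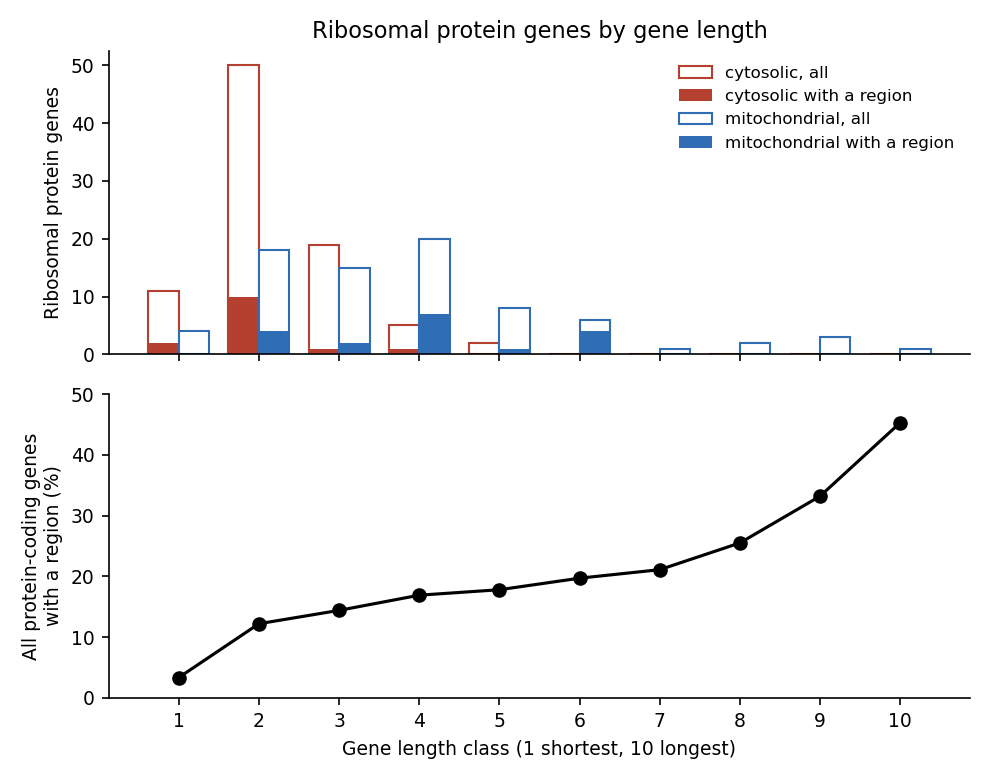
Upper panel: number of cytosolic (red) and mitochondrial (blue) ribosomal protein genes in each of 10 gene length classes, as open bars for all genes and filled bars for genes with a region. Lower panel: percent of all protein-coding genes with a region in each class. The members crowd into classes 1 to 5, where the lower curve runs from 3.34% to 17.8%.

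Other genes of ribosome production and of short housekeeping machines, listed by role, gave shares on both sides of the background. Of the ribosomal proteins that the symbol rule leaves out 2 of 11 had a region (18.2%, against 12.8% for genes of their length). They were Rplp1 of the large subunit stalk with 582 reads per kb and Rack1, a scaffold on the small subunit, with 1263. Of the ribosome assembly and nucleolar genes 9 of 30 (30.0%) had one, against 18.5% for genes of their length, among them Nop58 with 1168 and Nop56 with 667 reads per kb, core proteins of the box C/D particles that methylate ribosomal RNA. For the RNA polymerase I and III machinery it was 5 of 31 (16.1%, 21.2% by length), with Ubtf, the upstream binding factor of ribosomal RNA genes, at 1350 reads per kb. Cytosolic translation factors and their regulators had a region in 13 of 66 cases (19.7%, 19.0% by length). Among them were Eef2, the translocation factor, at 1091, and Eef1g at 1619 reads per kb.

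Of the mitochondrial translation factors 1 of 17 (5.88%, 20.5% by length) had a region, beside the 18 of 78 mitochondrial ribosomal proteins. This was the release factor Mtrf1, at 1258 reads per kb. The interval of the observed 5.88%, 0.149% to 28.7%, spans the share of the ribosomal proteins. Respiratory chain subunits had a region in 14 of 83 cases (16.9%, 14.9% by length) and proteasome subunits in 5 of 40 (12.5%, 18.2% by length). All these intervals hold the 21.0% of all genes.

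**Figure D2:**
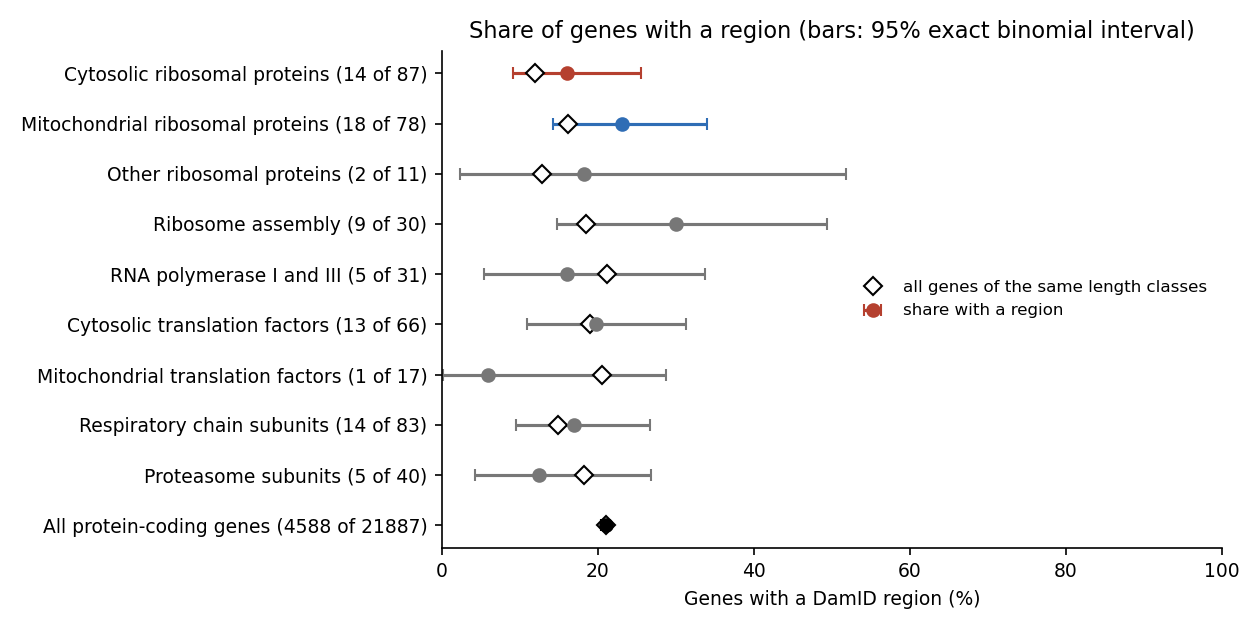
Percent of genes with a region in cytosolic (red) and mitochondrial (blue) ribosomal protein genes, in 7 other gene lists (grey) and in all protein-coding genes (black). Points with bars are the observed shares with 95% exact binomial intervals, and open diamonds are the shares of all protein-coding genes of the same length classes. Except for all genes themselves the intervals are wide, and each of them holds both its diamond and the 21.0% of all genes.

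The 32 genes with a region had 41 distinct regions. A single region was found at 25 genes, 5 mitochondrial genes had 2 regions, and Rpl3 and Rpl34-ps1 had 3 each, so that 7 of 32 (21.9%) had more than 1, against 30.6% of all protein-coding genes with a region and 13.4% of those in the 5 shorter length classes. Member regions had a median width of 2250 bp (1450 to 6050 bp), and the regions of all protein-coding genes a median of 2100 bp.

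Regions of ribosomal protein genes were often assigned to a neighbouring gene as well. Of the 41 regions 15 (36.6%, exact interval 22.1% to 53.1%) were also listed for another gene, 6 of 18 cytosolic (33.3%) and 9 of 23 mitochondrial ones (39.1%), against 645 of the 6927 regions of all protein-coding genes (9.31%) and 290 of 1545 regions (18.8%) at genes of the 5 shorter length classes. Counted by gene, 15 of the 32 members (46.9%) had at least 1 shared region, beside 18.3% of all protein-coding genes with a region and 29.4% when these were weighted by the members' length classes. For 13 members, 6 cytosolic and 7 mitochondrial, no region was their own. Without shared regions 19 of 165 members (11.5%) kept a region, 8 cytosolic (9.20%) and 11 mitochondrial (14.1%), against 18.0% of all protein-coding genes. For genes of like length the share was 10.5% beside all members, 8.52% beside the cytosolic and 12.6% beside the mitochondrial ones, each within the members' counting interval.

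**Figure D3:**
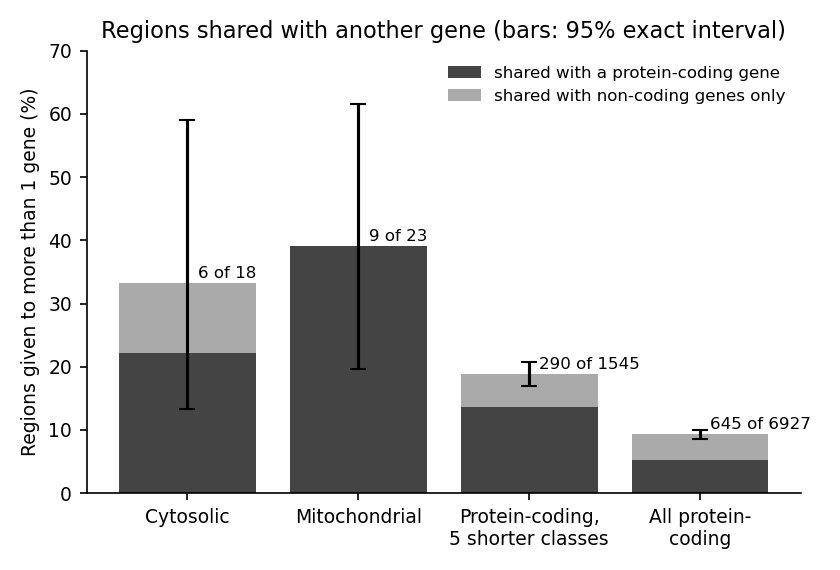
Percent of distinct regions listed for more than 1 gene, at cytosolic and mitochondrial ribosomal protein genes, at protein-coding genes of the 5 shorter length classes and at all protein-coding genes. Dark bars are regions shared with another protein-coding gene, light bars regions shared with non-coding genes only, numbers are regions, and lines are 95% exact binomial intervals. The 9 shared mitochondrial regions were all shared with protein-coding genes, while 2 of the 6 cytosolic ones were shared with small nucleolar RNAs only.

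The shared cytosolic regions fell into pairs with protein-coding neighbours and into hosts of small nucleolar RNAs, which guide the modification of ribosomal RNA and are cut from introns. The Rpl12 region was also listed for Snora65, and the Rps12 region for SNORD101 and Snord100. The Rpl7a region, with 6050 bp the widest at a member, was listed for 3 copies named SNORD36 and for Surf1 and Surf2 of the same tight gene cluster. Rps2 shared its region with Ndufb10, a subunit of respiratory complex I, Rpl3l with Msrb1 (Sepx1 in the table), a methionine sulfoxide reductase, and Rpl9 with Lias, the lipoic acid synthetase of mitochondria.

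Among mitochondrial genes Mrps12 shared its region with Sars2, the mitochondrial seryl-tRNA synthetase, Mrpl51 with Ncapd2, a condensin subunit, Mrpl50 with Zfp189, a zinc finger gene, and Mrps18b with Ppp1r10, a regulator of protein phosphatase, and Mir1894. Mrpl13 shared with Mtbp, a binding partner of Mdm2, Mrpl54 with Apba3, an adaptor protein, and Mrps21 with C920021L13Rik. Mrpl52 shared 1 of 2 regions with the membrane collagenase Mmp14, and Mrpl33 1 of 2 with the ribokinase Rbks. Of the 13 pairs of a member and a protein-coding neighbour that matched the RefSeq table, 12 were next to each other in it. Their transcripts ran head to head, with neighbouring starts, in 5 pairs, tail to tail in 3 and on the same strand in 3, and for 2 pairs the strand was not read.

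The 5 head-to-head pairs were Rpl9 and Lias, Mrpl50 and Zfp189, Mrps12 and Sars2, Mrpl51 and Ncapd2, and Mrps18b and Ppp1r10. In the RefSeq table of GRCm38.p6 their starts lay 66, 93, 147, 614 and 756 bp apart, less than the width of the shared region in every pair (1900, 2200, 2100, 2450 and 3500 bp). At this resolution the table cannot say which of the paired genes a region belongs to. The stretch between the starts is shown for the 3 closest pairs, since each is short enough to serve 2 genes at once. The member's strand is given, 5′ to 3′ and ending at the base before its start, and capitals mark GATC, the site that Dam methylates.
Rpl9 (GRCm38.p6, chr5:65391432-65391496, minus strand): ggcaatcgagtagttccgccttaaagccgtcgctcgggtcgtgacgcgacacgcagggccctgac
Mrpl50 (GRCm38.p6, chr4:49521084-49521175, minus strand): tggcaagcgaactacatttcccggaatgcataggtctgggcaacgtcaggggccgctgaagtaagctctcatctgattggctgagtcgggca
Mrps12 (GRCm38.p6, chr7:28741822-28741967, minus strand): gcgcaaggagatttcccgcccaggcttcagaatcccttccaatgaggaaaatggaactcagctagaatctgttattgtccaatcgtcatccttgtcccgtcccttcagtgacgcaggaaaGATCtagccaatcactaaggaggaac

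GATC occurred in the Mrps12 stretch only, and none of the 3 held TGTGGT, or the variant TGCGGT, on either strand, core letters known from Runx binding sites. RefSeq upstream windows of 250 bp were found for 26 of the 32 members with a region and for 110 of the 133 without one. One of these motifs, on either strand, was in 9 of the 26 windows (34.6%) of members with a region, 4 cytosolic and 5 mitochondrial, in 16 of 110 (14.5%) of members without one and in 17.7% of 17492 windows of all protein-coding genes. GATC was in 11 of 26 (42.3%), in 33 of 110 (30.0%) and in 41.1% of all. These counts are small, they describe letters and not sites, and whether a region covers a window was not determined, since the regions are in mm9 and the windows in another build.

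For 3 members every region was their own and the window held such a match, and their upstream windows are shown. It was not determined whether the regions of these genes cover the windows or the matches. Capitals mark TGTGGT, and likewise the variant TGCGGT, also where either is read on the opposite strand. None of the 3 windows held GATC. Mrps33 had 2 matches and the others 1 each.
Rpl27a (GRCm38.p6, chr7:109518945-109519194, plus strand): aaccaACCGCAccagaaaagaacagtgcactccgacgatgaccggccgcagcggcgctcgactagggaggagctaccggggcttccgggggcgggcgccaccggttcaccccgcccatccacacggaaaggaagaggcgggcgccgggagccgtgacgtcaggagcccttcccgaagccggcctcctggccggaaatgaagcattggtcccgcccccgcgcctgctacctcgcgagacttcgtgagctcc
Mrpl23 (GRCm38.p6, chr7:142532782-142533031, plus strand): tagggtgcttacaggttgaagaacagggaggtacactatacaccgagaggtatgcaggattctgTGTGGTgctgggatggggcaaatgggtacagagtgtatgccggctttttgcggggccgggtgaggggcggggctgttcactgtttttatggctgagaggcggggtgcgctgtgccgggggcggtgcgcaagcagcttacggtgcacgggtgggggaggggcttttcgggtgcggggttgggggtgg
Mrps33 (GRCm38.p6, chr6:39810937-39811186, minus strand): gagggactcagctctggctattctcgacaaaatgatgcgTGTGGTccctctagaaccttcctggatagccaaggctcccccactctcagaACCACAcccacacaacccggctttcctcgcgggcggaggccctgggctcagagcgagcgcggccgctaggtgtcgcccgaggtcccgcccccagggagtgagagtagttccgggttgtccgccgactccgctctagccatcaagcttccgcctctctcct

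Reads per kb of regions, the table's second value, were ordinary in this class. Members with a region had a median of 685 reads per kb (quartiles 567 and 894), against 687 (518 and 915) for all protein-coding genes with a region. The cytosolic median was 633 (567 to 788 between quartiles) and the mitochondrial median 735 (582 to 951), and 5 of 14 and 11 of 18 genes lay above the median of 686 of the protein-coding rows. The classes overlap over nearly their whole range, 346 to 1577 reads per kb for cytosolic and 484 to 1689.5 for mitochondrial genes. The table holds 1 value per gene over its regions, so these values describe the signal within regions, without a comparison with Dam. The members' median was 0.998 times that of all protein-coding genes, and 0.943 times after scaling every gene to its own chromosome's median.

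**Figure D4:**
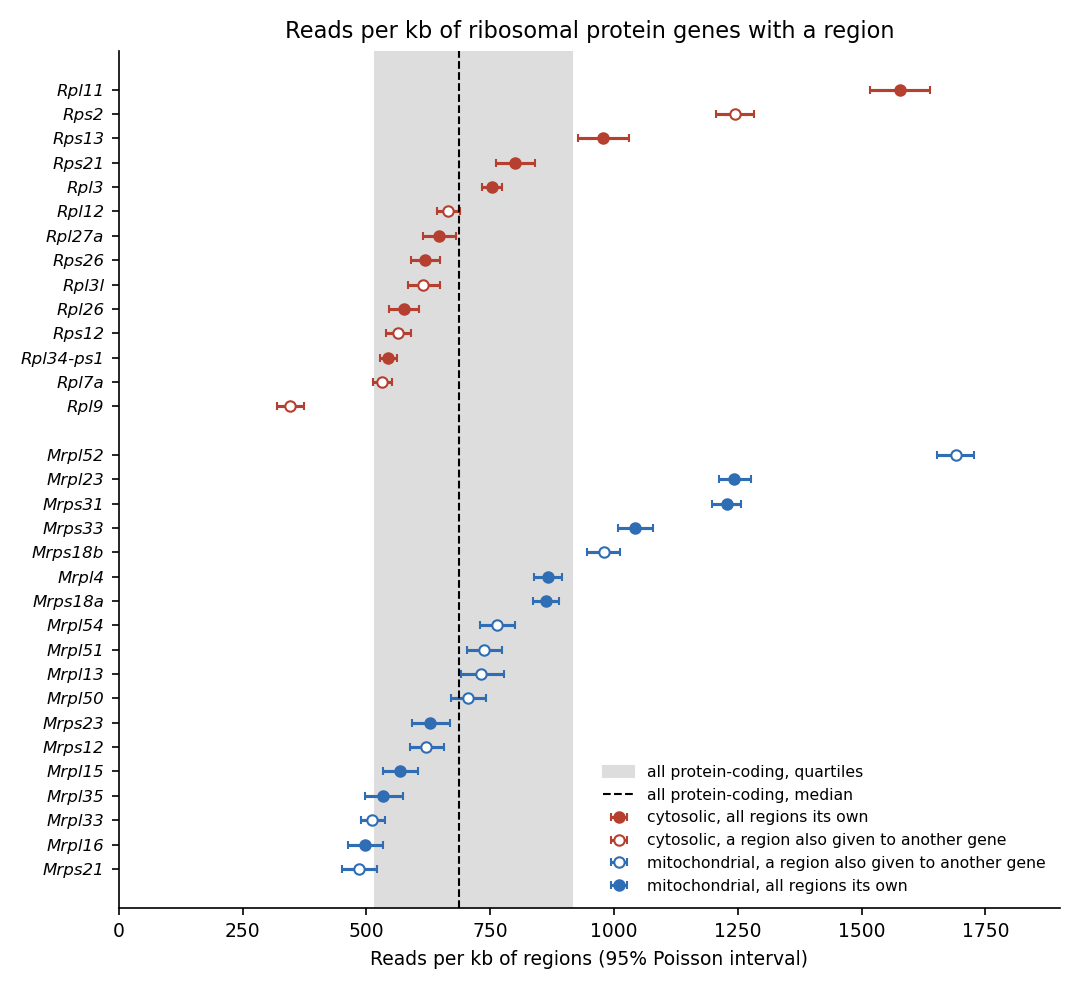
Reads per kb of regions for each of the 14 cytosolic (red) and 18 mitochondrial (blue) ribosomal protein genes with a region, with 95% Poisson intervals for counting error. Filled points had regions of no other gene, open points had at least 1 region also listed for another gene, and the grey band and dashed line are the quartiles and median of all protein-coding genes. Most points lie in the band, with Rpl11 and Mrpl52 farthest above it and Rpl9 farthest below.

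Rpl11, a large subunit protein that also binds Mdm2 when ribosome assembly fails, had the highest cytosolic value. Its single region, assigned to no other gene, lay on chromosome 4 between 135586709 and 135588359 (mm9) with 2603 reads, 1577 reads per kb (95% Poisson interval 1517 to 1638) and a rank above 96.6% of the listed genes. The neighbouring gene Id3 also had a region, but the nearest other region was that of U6, 90.5 kb away. Rps2, a protein of the small subunit, followed with 1244 reads per kb (1206 to 1283) over a region on chromosome 17 between 24858214 and 24861514, the one shared with Ndufb10. The region of Rpl3l, a muscle form of Rpl3, lay 10.2 kb farther on with 615 reads per kb.

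Rps13 of the small subunit had 977 reads per kb (927 to 1030) in a region of its own on chromosome 7 between 123478031 and 123479481, and Rps21 had 800 (761 to 840) on chromosome 2 between 179989774 and 179991774, 25.5 kb from the nearest region of Lama5, a laminin gene. These 4 genes and Rpl3 were the cytosolic members above the median. Rpl3, which lies close to the peptidyl transferase centre, had 754 reads per kb (733 to 774) from 3 regions of its own on chromosome 15 between 79883105 and 79914755.

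Of the remaining cytosolic genes, 3 had a single region of their own. Rpl27a had 647 reads per kb (614 to 681) on chromosome 7 between 116660131 and 116662381. Rps26, the small subunit protein affected in Diamond-Blackfan anaemia, had 619 (590 to 649) on chromosome 10 between 128061470 and 128064170, and Rpl26 had 576 (546 to 607) on chromosome 11 between 68719035 and 68721385. All of them were somewhat below the median of all genes. Rpl12 had 664 and Rps12 564 reads per kb in regions shared with small nucleolar RNA genes. The lowest cytosolic values were at Rpl7a and Rpl9. Rpl7a had 532 reads per kb (514 to 551) on chromosome 2 between 26767124 and 26773174. Rpl9 had 346 (320 to 373) on chromosome 5 between 65781529 and 65783429, above 9.72% of listed genes.

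Mrpl52, a large subunit protein, had the highest value of all 32, 1689.5 reads per kb (1653 to 1727) and 8113 reads in 2 regions on chromosome 14 between 55044126 and 55050526. One of its regions was its own and the other shared with Mmp14, and the reads of each cannot be separated. Mrpl23 reached 1243 (1211 to 1276) with 2 regions of its own on chromosome 7 between 149714231 and 149728281, the first of them 4.85 kb from a region of the troponin gene Tnnt3. Mrps31 had 1228 (1199 to 1257) in a single region of 5550 bp, its own, on chromosome 8 between 23552448 and 23557998. Chromosome 8 had a median of 984 reads per kb over all listed genes, and Mrps31 stood at 1.25 times it.

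Mrps33 followed with 1042 reads per kb (1007 to 1078) on chromosome 6 between 39729219 and 39732419. Among the other mitochondrial genes with 2 regions, Mrpl4 had 867 (838 to 895) on chromosome 9 between 20806101 and 20817451, between S1pr2, a sphingosine phosphate receptor, and Icam1, an adhesion molecule, which both had a region. Mrps18a, one of the variants of the bacterial S18 protein, had 862 (837 to 888) on chromosome 17 between 46217664 and 46253264, with the nearest other region, that of the vascular growth factor Vegfa, 45.8 kb away. Mrpl33 had 512 (489 to 537) on chromosome 5 between 31907079 and 31937829, of which its own region held 380 reads, 200 reads per kb, and the one shared with Rbks 1389 reads, 896 reads per kb. Most of the reads of this gene lay in the shared region.

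A further 4 mitochondrial genes had a single region of their own. Mrps23 had 629 reads per kb (591 to 669) on chromosome 11 between 88046435 and 88048035. Mrpl15 had 568 (533 to 605) on chromosome 1 between 4749513 and 4751213, with the adjacent gene Sox17, an endothelial transcription factor, also listed but 260 kb away. Mrpl35 had 534 (497 to 573) on chromosome 6 between 71772819 and 71774269, and Mrpl16 had 498 (463 to 534) on chromosome 19 between 11844505 and 11846055. All of these were below the median of all genes. The lowest mitochondrial genes were Mrpl16 and Mrps21, which had 484 (450 to 521) on chromosome 3 between 95674302 and 95675802. The remaining mitochondrial genes, each with its only region shared, were Mrps18b at 979, Mrpl54 at 764, Mrpl51 at 738, Mrpl13 at 732, Mrpl50 at 706 and Mrps12, a protein of the decoding centre, at 621 reads per kb.

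The regions of a ribosomal protein gene did not always lie within it. In all 7 members with more than 1 region the stretch from the first region to the last was longer than the gene itself in the RefSeq table, as in 150 of 190 such genes (78.9%) of the 5 shorter length classes and 300 of 1404 (21.4%) of all protein-coding genes. For Rpl3 this stretch was 31.6 kb against a gene of 5.63 kb, for Mrpl33 30.8 kb against 8.69 kb and for Mrps18a 35.6 kb against 17.9 kb, so at least 1 region reached outside each of these genes. Rpl34-ps1, a pseudogene in the table and 0.413 kb long in RefSeq, had 3 regions on chromosome 6 between 71055169 and 71074569, a stretch of 19.4 kb, and 544 reads per kb (527 to 562). Of the 25 members with 1 region, 7 (28.0%) had a region wider than the gene, 5 of 12 cytosolic (41.7%) and 2 of 13 mitochondrial ones (15.4%). Among single-region genes of the 5 shorter classes it was 11.7%. Neither this comparison nor that of members with more than 1 region was weighted by length within these classes. The cytosolic genes were the shorter ones, so these shares do not set the members apart from genes of their own length.

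Of the 32 members with a region, 23 (71.9%) had a region at the next protein-coding gene on at least 1 side, against 55.7% of all protein-coding genes with a region and 62.1% of those of like length. For 6 of the 23 the neighbour had only the region that it shared with the member. Without such shared regions the count was 17 of 32 (53.1%), against 49.4% of all protein-coding genes and 49.1% of those of like length. Of the members without a region 45 of 133 (33.8%) had such a neighbour, against 31.0% of all genes without one and 27.2% of those of like length. Among these, the count was 33 of 73 for cytosolic genes (45.2%) and 12 of 60 for mitochondrial genes (20.0%). Leaving out the member's own regions and the shared ones, the nearest other region lay at a median of 42.2 kb from members, 78.5 kb from all protein-coding genes and 40.0 kb from those of the 5 shorter classes.

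The 32 genes lay on 15 autosomes. The 4 members of the X chromosome, all cytosolic, had no region, beside 22.9% of all protein-coding genes there. Chromosomes 6, 7 and 17 had 4 genes with a region each, of 9, 19 and 16 members. Of all protein-coding genes on these chromosomes 21.6%, 15.8% and 17.7% had one. The 4 members of chromosome 12, the 6 of 13, the 7 of 16 and the 2 of 18 had none, beside 27.1%, 21.6%, 24.2% and 24.9% of all protein-coding genes. With so few members, these counts do not set any chromosome apart. Cytosolic ribosomal protein genes have many processed copies, and the sources do not say how reads that fit several copies were placed, so reads at these genes are less certain than at unique genes.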

How the data were processed

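Genomic DNA of the 12 libraries was prepared by a DamID protocol and sequenced on the SOLiD system, per the labels' protocols. Coordinates are in mm9, per the submitters' processing notes. Not given in the sources used here: aligner, region caller, the comparison with Dam and the assignment of regions to genes. In the deposited table each gene has a read count, summed over its regions, and a signal, the reads per kb, which equalled count over summed region length within 0.006 in all 5867 rows. No scaling to depth was found. There are 0 columns of values per library.

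Symbols were matched to RefSeq genes of GRCm38.p6 on the same chromosome, by synonym only where a symbol was no current one. Of 4771 protein-coding rows 96.1% matched, and no member needed a synonym. RefSeq gave lengths, order and upstream sequences, and its coordinates are printed for sequences only. Shares have exact Clopper-Pearson and reads Poisson intervals at 95%, for counting error only, with no test. A region's own reads came from genes with a single region, or by subtraction. Python 3.11.15, scipy 1.17.1 and pandas 2.3.3 were used, and the length weighting was tested on simulated data. Every member with a region was named, with full values for the 4 highest and 2 lowest of each class by reads per kb and for members with 2 or more regions or a region of their own. Examples from the other lists were chosen after their values were seen. The members and lists were chosen with earlier results of these data known.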

Additional observations from a re-analysis of the deposited data

How the results depend on the processing

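With only regions of no other gene the share with a region was 11.5% of all members and 14.1% of mitochondrial ones, against 18.0% of all protein-coding genes. With 2 or more regions required it was 4.24% of all members, 2.30% of cytosolic and 6.41% of mitochondrial ones, against 6.41%. Counting only genes whose reads per kb exceeded the median, it was 9.70%, 5.75% and 14.1%, against 10.5%. Each of these settings counts fewer genes as having a region. The share over all protein-coding genes was 19.1% by current symbols alone, 24.4% without predicted and receptor genes and 10.4% over all gene types, and the share of their regions shared with a protein-coding gene was 5.23%. With shared regions left out, the share of genes with a region whose adjacent gene also had one was 53.1% for members and 49.4% for all protein-coding genes. The share of length-matched genes with a region of no other gene was 10.5% for all members, 8.52% for cytosolic and 12.6% for mitochondrial ones. Of 59 alternative values 39 were counted as having stayed. For shares this meant lying within the counting interval of the main share, or for length-matched genes that of the members. For medians and their ratios it meant lying within 1.5 times. All medians of reads per kb were among the 39. With 5 length classes the length-matched share for all members, 12.7%, was also counted so. It lay below the members' interval of 13.7% to 26.3%, and so outside the stated rule. Leaving out paralogue-like symbols gave 31 genes with a region, and so did leaving out pseudogene-like and retrogene symbols, an alternative chosen after seeing the data, as were table rows called protein coding alone, the length weighting without predicted genes or shared regions and the neighbours without shared regions. No paired analysis was possible because the table has no value per library, and for the same reason no library could be left out. Depth per library is unknown.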

Other observations

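The table also lists 11 genes named as copies of cytosolic ribosomal protein genes that RefSeq calls pseudogenes, and 0 named as copies of mitochondrial ones. The table itself calls 6 of the 11 protein coding and 5 pseudogenes. All 11 had regions of no other gene, with a median of 629 reads per kb (224 to 1603). Of the regions of all protein-coding genes 9.31% were listed for 2 or more genes. Rps18-ps2 had the most, 1603 reads per kb on chromosome 4 between 8838909 and 8841859, followed by Rps13-ps1 with 1441 on chromosome 8 between 89585848 and 89587648. Rpl27-ps2 had 1165 reads per kb and Rpl21-ps4 224. Rpl21-ps7 had 3 regions spread on chromosome 17 between 83685064 and 83717714. RefSeq holds 312 symbols of this kind, and over all gene types 10.4% of genes had a region. The 312 are not divided into cytosolic and mitochondrial copies, so the 11 and the 0 cannot be set against each other.

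The S6 kinases, which phosphorylate ribosomal protein S6 and other targets and are left out of the class, had a region in 5 of 10 cases. The counting interval, 18.7% to 81.3%, holds the 32.8% of protein-coding genes of their length. The median length of these kinases was 79298.5 bp. Rps6ka1 had 1877 reads per kb in a region also listed for Gm12977, Rps6ka2 had 813 over 3 regions, Rps6kl1 had 620, and the X-linked Rps6ka6 and Rps6ka3 had 415 and 108, on a chromosome whose listed genes had a median of 160 reads per kb.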
